A study of Mus musculus with 4 samples.

Results

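The mitosis genes of G2 and M phase described here are 36 genes chosen by symbol from a list, and each of them was present in the count matrices of both RNA libraries, out of 31054 genes in all. The tissue was the ear of the C57BL/6 mouse at P8, the neonatal stage, and the study sorted cells that were positive for CD31 and for the Rtom reporter switched on by the endothelial Cre driver Cdh5CreERT2, and profiled the single cells from the 3′ ends of their transcripts together with antibody tags for 5 proteins. Both libraries came from the same kind of animal and carried the same reporter. There was 1 condition and there were 2 biological replicates, so the comparisons lie between the kinds of cell within a sort and not between treatments. The labels do not say how many ears or animals a replicate pooled. P-values rest on how far the differences between kinds of cell varied between these 2 libraries, and not on a spread between animals.

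A cell that has copied its DNA turns on a block of genes that break down the nuclear envelope, condense and pull apart the chromosomes and split the cell. Cyclin-dependent kinase 1, encoded by Cdk1, acts with cyclin A and then cyclin B, and the block is driven largely by the transcription factors FOXM1 and B-MYB with the MuvB complex, which binds a short promoter element called the cell cycle genes homology region. Top2a, which untangles DNA, and Cdk1 rise early, from late S phase on. Ccnb2, a B-type cyclin, and Cenpa, the histone that marks centromeres, peak later. In a growing vascular bed such as the neonatal ear, endothelial cells divide mainly in capillaries and veins, while arterial cells are known to leave the cell cycle.

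The libraries held 1745 and 2877 cell barcodes with 15989249 and 26675353 unique transcript counts (UMIs), and 1497 and 2239 cells remained after filtering, with medians of 8458 and 8982 UMIs. Only 3 barcode sequences were shared by the libraries. Cells were placed by marker genes alone, none of them a cell cycle gene. The margins between vessel types were chosen with the members' levels in view, so the types were not set independently of them. Blood endothelium comprised 1061 and 1434 cells (library 1 and library 2, the order used throughout), lymphatic endothelium 294 and 599, and pericyte-like cells 99 and 146. Within blood endothelium, 264 and 263 cells were artery-like, 218 and 217 vein-like, 199 and 318 capillary-like, 173 and 282 tip-like, and 207 and 354 fitted no type by a clear margin and are called unplaced. The gates are ranges of a score: 416 of 2495 blood cells lay within 0.1 SD of a cut between types. The pericyte-like cells carried both Pecam1 and Cdh5, defining endothelial genes, in 81.8% and 71.2% of cells, with median UMIs of 12551 and 11482. Whether they are endothelial cells, doublets or pericytes with endothelial RNA was not tested.

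Promoters of 5 members are shown because they include the early and late genes that the results turn on, with Cdc20, which activates the anaphase-promoting complex. Each runs from 200 bases before to 30 bases after the RefSeq gene start (GRCm38.p6, the build of the files), 5′ to 3′ on the gene's strand. Capitals mark the letters TTTGAA or TTCGAA (the homology region in its usual forms) and CCAAT (bound by NF-Y), each on either strand, so that TTTGAA may read TTCAAA and CCAAT may read ATTGG. The windows lie at chr11:99024160-99024389 on the minus strand (Top2a), chr10:69352883-69353112 on the minus strand (Cdk1), chr9:70421525-70421754 on the minus strand (Ccnb2), chr5:30666686-30666915 on the plus strand (Cenpa) and chr4:118437314-118437543 on the minus strand (Cdc20).
Top2a: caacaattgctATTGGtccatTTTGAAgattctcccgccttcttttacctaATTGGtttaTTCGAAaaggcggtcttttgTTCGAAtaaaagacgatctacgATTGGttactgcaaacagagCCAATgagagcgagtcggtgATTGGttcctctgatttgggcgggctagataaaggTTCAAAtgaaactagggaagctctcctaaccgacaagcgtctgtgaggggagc
Cdk1: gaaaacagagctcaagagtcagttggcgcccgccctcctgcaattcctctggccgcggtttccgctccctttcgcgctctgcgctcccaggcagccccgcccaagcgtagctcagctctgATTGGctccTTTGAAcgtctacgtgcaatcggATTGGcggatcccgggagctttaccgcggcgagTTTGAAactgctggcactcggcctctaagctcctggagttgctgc
Ccnb2: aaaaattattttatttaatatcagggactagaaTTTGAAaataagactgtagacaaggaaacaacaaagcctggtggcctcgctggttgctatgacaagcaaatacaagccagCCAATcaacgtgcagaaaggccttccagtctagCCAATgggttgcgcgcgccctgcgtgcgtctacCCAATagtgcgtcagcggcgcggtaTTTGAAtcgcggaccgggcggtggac
Cenpa: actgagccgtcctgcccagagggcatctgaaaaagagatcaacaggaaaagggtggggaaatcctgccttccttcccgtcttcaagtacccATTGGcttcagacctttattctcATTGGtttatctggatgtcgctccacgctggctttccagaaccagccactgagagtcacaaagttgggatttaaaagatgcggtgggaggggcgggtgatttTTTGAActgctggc
Cdc20: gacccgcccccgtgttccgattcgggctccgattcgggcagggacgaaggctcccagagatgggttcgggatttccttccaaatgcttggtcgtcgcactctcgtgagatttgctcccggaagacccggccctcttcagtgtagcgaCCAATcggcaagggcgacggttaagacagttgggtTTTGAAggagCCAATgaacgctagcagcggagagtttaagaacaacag

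All of these 5 windows held a TTTGAA or TTCGAA within 30 bases of the gene start. The match began 23 bases before the start in Top2a, 15 before it in Cdk1, 18 before it in Cdc20, 4 after it in Ccnb2 and 16 after it in Cenpa. At least 1 CCAAT match stood upstream of it in each window, for example 21, 54 and 87 bases before the start in Ccnb2. In 300-base promoters (250 bases before to 50 after the start), 29 of the 36 members had an entry in the RefSeq table, and 21 of them (72.4%) held TTTGAA or TTCGAA, against 21.7% of 27025 genes in the table. Of the 42 matched genes in a list of 50 other mitosis genes, 76.2% held it, and of the 35 matched genes in a list of 46 S-phase genes, 7 did. At least 2 CCAAT matches were found in 58.6% of the members and 13.3% of all genes. No match of the first kind overlapped a CCAAT in any of the members' 31 promoters. The E2F-type letters TTTCCCGC or TTTGGCGC were found in 34.3% of the S-phase genes, 1.80% of all genes and 0 of the 29 members. A match of letters is a description of these windows and no evidence of binding. Ccna2, Aurkb, Tpx2, Kif20a, Pbk, Pimreg and Spc24 were not matched.

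To compare cells of unequal depth, each cell with at least 4000 UMIs was thinned to that number. Shallower cells were left out of the shares, 82 and 129 in blood endothelium. Of these, 30 and 48 were artery-like, 5 and 13 vein-like, 18 and 29 capillary-like and 12 and 12 tip-like. A thinned cell was called dividing with 3 or more UMIs from 34 of the members. Hmgb2, a chromatin protein, and Cks2, a small partner of cyclin-dependent kinases, were left out because non-dividing cells also hold them. Dividing cells made up 18.4% and 20.9% of blood endothelium, 15.6% and 20.1% of lymphatic endothelium and 20.2% and 21.2% of pericyte-like cells. The exact 95% binomial intervals of these 3 kinds overlapped within each library (library 1: 16.0 to 21.0% for blood, 11.6 to 20.3% for lymphatic and 12.6 to 29.8% for pericyte-like cells). Intervals cover counting error only. Within blood endothelium, artery-like cells stood lowest, with 17 of 234 cells (7.26%, interval 4.29 to 11.4%) and 20 of 215 (9.30%, interval 5.78 to 14.0%). Vein-like cells were at 12.7% and 18.1%, tip-like cells at 17.4% and 20.7%, and capillary-like cells at 26.0% and 18.7%. The order of capillary-like and tip-like cells differed between the libraries, while artery-like cells were below every other gated type in both. With types taken from clusters of cells instead, artery-like cells were at 7.60% and 8.02%. Vein-like cells were then at 7.25% and 10.2% and tip-like cells at 7.98% and 9.30%, so artery-like cells were not lowest in library 1. Unplaced blood cells held the most dividing cells, 32.1% and 32.4%. With 2 libraries a type, these shares were given no test.

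**Figure D1:**
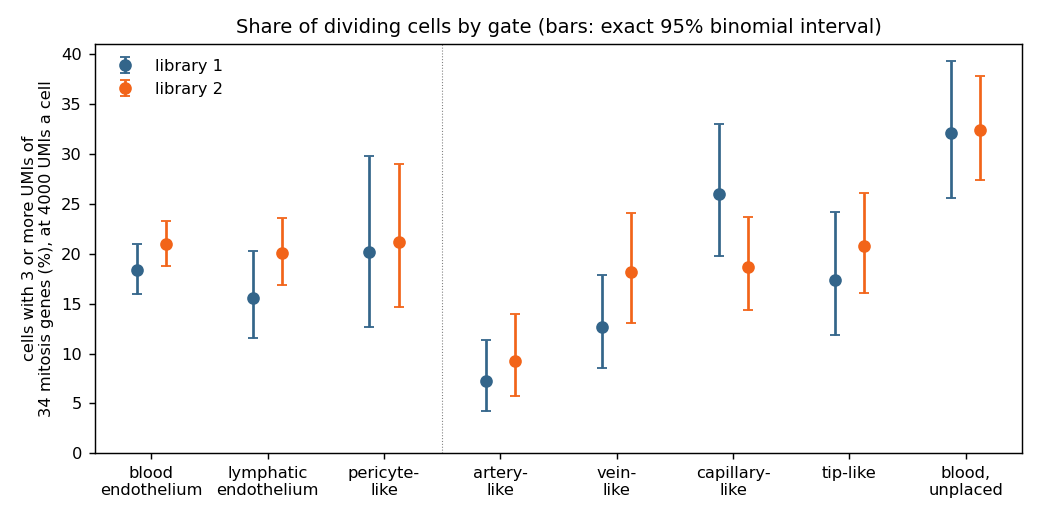
Share of cells with 3 or more UMIs of 34 mitosis genes at 4000 UMIs a cell (vertical axis, percent) for each gate (horizontal axis), with 1 point for each library and exact 95% binomial bars. Artery-like cells lie at 7.26% and 9.30%, below the other types, and unplaced blood cells at 32.1% and 32.4%, above them.

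Placement by markers moved with division. Among dividing blood cells, 33.9% and 38.8% were unplaced, against 16.1% and 21.4% of non-dividing ones, and 9.44% and 7.33% were artery-like, against 27.2% and 18.9%. The summed artery markers were also lower in dividing blood cells, with medians of 2.04 and 2.86 per 10000 UMIs against 4.27 and 5.08. Fewer dividing cells in a type and weaker type markers in dividing cells therefore cannot be told apart. Dividing cells also held more UMIs before thinning, with medians of 12271 and 12315 in blood endothelium against 7824 and 8174. No gated class that should lack these genes held enough cells to serve as a background for free RNA. In non-dividing blood cells the members summed to 283 and 370 counts per 1000000 UMIs (CPM), against 8103 and 8187 in dividing ones, a difference that the rule for dividing cells itself produces. Dividing cells held 90.8% and 89.2% of the members' UMIs in blood endothelium and 71.7% and 84.5% in artery-like cells. Fewer dividing cells cannot be told apart from less RNA per cell in a summed level.

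Artery-like cells had lower levels of the mitosis genes than capillary-like cells throughout the list. UMIs were summed per library and gate and tested across all genes with edgeR's quasi-likelihood test, with the library as a block and Benjamini-Hochberg adjusted p below 0.05 as the threshold. All 36 members were tested, 29 fell, none rose and 7 did not pass, where 22.1% of 10921 genes passed, 11.2% higher and 10.9% lower. The median log2 change over the 36 members was -1.12, against -0.01 over all genes. All 6 centromere and kinetochore genes fell, as did both members of the anaphase-promoting complex system, 10 of 13 cyclins, kinases and their partners, 7 of 11 spindle and cleavage furrow genes, and all 4 of Mki67, Top2a, Hmgb2 and Pimreg.

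Of the early genes, Top2a stood at 27.3 and 73.7 CPM (from here on scaled by the trimmed mean of M values) in artery-like cells and at 151 and 101 in capillary-like cells, a log2 change of -1.31 ± 0.30 (SE), with edgeR adjusted p = 0.00386. Cdk1 was at 24.4 and 77.5 CPM against 143 and 113 (-1.35 ± 0.27, edgeR adjusted p = 0.00129). Of the late genes, Ccnb2 was at 27.8 and 46.2 CPM against 70.0 and 59.8 (-0.81 ± 0.21, edgeR adjusted p = 0.0087). The groups did not overlap for any of these genes, but library 1's artery-like cells were lower than library 2's in each. Cenpa followed at 41.9 and 63.7 CPM against 112 and 100 (-1.01 ± 0.18, edgeR adjusted p = 0.000659).

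The smallest p-values belonged to genes of several roles. Hmgb2 was at 263 and 420 CPM against 663 and 708 (-1.03 ± 0.13, edgeR adjusted p = 1.94e-05). Birc5, which encodes survivin, a subunit of the chromosomal passenger complex, was at 33.6 and 59.4 CPM against 119 and 116 (-1.35 ± 0.18, edgeR adjusted p = 3.62e-05). Tpx2, an activator of Aurora A on the spindle, was at 11.7 and 22.3 CPM against 46.0 and 53.0 (-1.56 ± 0.21, edgeR adjusted p = 3.66e-05). These 3 genes kept the same order, with both artery-like sums below both capillary-like sums. Pimreg, a mitotic regulator that binds the clathrin assembly protein PICALM, had the largest change of the list, from 45.5 and 40.4 CPM in capillary-like cells to 5.84 and 12.7 in artery-like cells (-2.21 ± 0.31, edgeR adjusted p = 6.25e-05). Mki67, the proliferation antigen that coats mitotic chromosomes, was at 23.9 and 52.5 CPM against 101 and 95.7 (-1.38 ± 0.23, edgeR adjusted p = 0.000352). Over the list, 34 of 36 members were lower in both artery-like sums than in both capillary-like sums, as were 28.4% of all 10921 genes tested. Without library 1 the median log2 change was -0.54 and without library 2 it was -1.95, with no test. With cells of at least 1000 genes and at most 5% mitochondrial UMIs, 6 members fell and the median was -0.92, and 19 fell with DESeq2 and 18 with stricter gate margins.

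**Figure D2:**
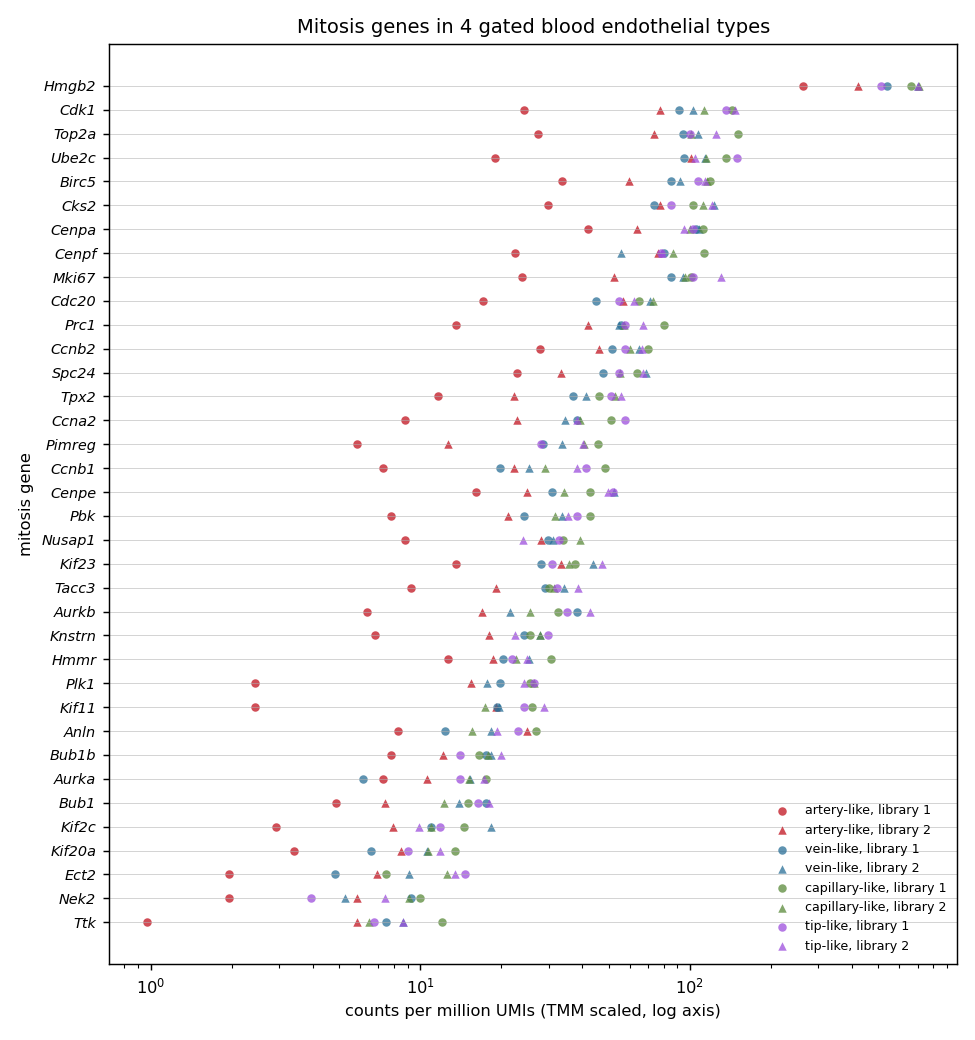
Level of each of the 36 mitosis genes (rows, ordered by the capillary-like mean) in CPM on a log axis, for 4 gated blood endothelial types, with circles for library 1 and triangles for library 2. Both artery-like points lie below both capillary-like points for 34 of the 36 genes, a separation that 28.4% of all genes tested also had.

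Against vein-like cells, 21 of the 36 members fell in artery-like cells, none rose and 15 did not pass, where 24.0% of genes passed, 11.3% higher and 12.7% lower. The median log2 change was -0.95. Both comparisons use the same artery-like sums. Cenpa was at 105 and 108 CPM in vein-like cells (-1.02 ± 0.19, edgeR adjusted p = 0.000589) and Top2a at 94.6 and 107 (-1.01 ± 0.31, edgeR adjusted p = 0.0228), both above the artery-like values. Cdk1, at 91.5 and 103 CPM in vein-like cells, gave -0.96 ± 0.28 (edgeR adjusted p = 0.0174), and Ccnb2, at 51.5 and 64.8 CPM, gave -0.66 ± 0.21 (edgeR adjusted p = 0.0301). The median was -0.53 without library 1 and -1.65 without library 2, and 11 members fell with the stricter cell filter and 6 with stricter gate margins. When types were taken from clusters of cells instead, most dividing blood cells went to capillary-like clusters (38.7% of whose cells were dividing). No member then fell against vein-like cells, 1 rose, and the median was 0.21, whereas 36 fell against capillary-like cells.

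No member passed between tip-like and capillary-like cells, where 2.94% of genes did (1.47% in each direction), and none had an unadjusted p below 0.05 in edgeR or passed with DESeq2. The median log2 change was -0.04, and single members ran from -0.64 to 0.47. It was 0.17 without library 1 and -0.21 without library 2, and with types from clusters 36 members were lower in tip-like cells, with a median of -3.16. Top2a was at 100 and 125 CPM in tip-like cells and at 151 and 101 in capillary-like cells, so the groups overlapped. Cdk1 was at 136 and 147 CPM against 143 and 113. In counts simulated for this comparison, the test recovered 95% of genes changed by 2-fold. The changed genes were drawn only from those at higher levels, with 1 common spread. The rate therefore does not cover members at low levels or with a larger spread. Between vein-like and capillary-like cells no member passed either, where 11.4% of genes did, 6.54% higher and 4.89% lower, and 2 had an unadjusted p below 0.05 in edgeR and none passed with DESeq2. The median log2 change was -0.26, or 0.00 without library 1 and -0.44 without library 2. Other settings made calls: 4 members were lower in vein-like cells with no low-count filter, 4 with stricter gate margins, 2 with cells split by sex and 36 with types from clusters. Ccnb2 was at 51.5 and 64.8 CPM against 70.0 and 59.8 and Cenpa at 105 and 108 against 112 and 100, with overlapping groups. A p above the threshold does not show that the levels were alike.

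Genes of the neighbouring steps of the cell cycle were read from lists made for this purpose. In artery-like against capillary-like cells, 35 of 49 tested genes of the other mitosis list fell and 1 rose, and 40 of 45 S-phase genes fell and none rose, with medians of -1.10 and -1.33. Dut, which keeps uracil out of DNA, was at 41.4 and 40.8 CPM in artery-like and at 104 and 122 in capillary-like cells (-1.45 ± 0.13, edgeR adjusted p = 3.97e-07). Of 14 genes that drive entry from G1, 4 fell and 2 rose. The cyclin D genes went both ways: Ccnd1 was at 137 and 160 CPM against 697 and 694 (-2.23 ± 0.12, edgeR adjusted p = 1.91e-09). Ccnd2, another D-type cyclin, was at 230 and 232 CPM against 117 and 112 (1.01 ± 0.12, edgeR adjusted p = 1.1e-05). Of 20 tested cell cycle brakes, 5 rose and 2 fell, where 11.2% of all genes rose and 10.9% fell. Cdkn1c, which encodes the inhibitor p57, rose from 49.5 and 44.0 CPM in capillary-like cells to 211 and 253 in artery-like cells (2.32 ± 0.26, edgeR adjusted p = 5.17e-06). Between tip-like and capillary-like cells none of these 4 lists had a gene past the threshold.

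Blood and lymphatic endothelium had similar summed levels of the members, 2259 and 2451 CPM (unscaled) in blood and 2451 and 2601 in lymphatic cells, but single genes differed. Blood cells were higher in 2 members and lower in 10, and 24 did not pass, where 39.8% of 12121 genes passed, 21.6% higher and 18.2% lower. The share of members called, 12 of 36, was near that of all genes. The median log2 change, blood minus lymphatic, was -0.25, against 0.02 over all genes. Without the library block, and also with DESeq2, 1 member was higher and none was lower, while with the stricter cell filter 1 was higher and 18 were lower, and with cells split by sex 2 were lower. The lower calls thus depended on the model and the cells used.

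Hmgb2 was at 602 and 737 CPM in blood and 420 and 559 in lymphatic cells (log2 change 0.46 ± 0.09, edgeR adjusted p = 0.0026), with both blood values above both lymphatic values. Spc24, a subunit of the NDC80 complex that ties kinetochores to microtubules, was at 57.7 and 66.7 CPM against 43.6 and 39.9 (0.59 ± 0.14, edgeR adjusted p = 0.00669), again with no overlap. The lower genes were led by Cenpf, a large kinetochore protein, at 89.4 and 90.1 CPM in blood and 120 and 135 in lymphatic cells (-0.51 ± 0.14, edgeR adjusted p = 0.015). Prc1, which bundles the microtubules of the central spindle, was at 59.4 and 65.6 CPM against 97.1 and 82.6 (-0.51 ± 0.14, edgeR adjusted p = 0.0163). Both blood values were below both lymphatic values for these 2 genes. Hmmr, a spindle protein also known as a hyaluronan receptor, was at 26.8 and 27.9 CPM against 38.2 and 37.8 (-0.48 ± 0.14, edgeR adjusted p = 0.0182). Ube2c, the ubiquitin-conjugating enzyme of the anaphase-promoting complex, was at 115 and 130 CPM against 162 and 172 (-0.44 ± 0.14, edgeR adjusted p = 0.03). Kif11, the motor that pushes spindle poles apart, gave -0.52 ± 0.17 (edgeR adjusted p = 0.0344) and Nusap1, a spindle-associated protein, -0.45 ± 0.15 (edgeR adjusted p = 0.038). All 4 of these genes were lower in blood without overlap. The share of all genes without overlap was computed only for artery-like against capillary-like cells.

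Among the early and late genes, Ccnb2 passed, at 63.8 and 72.9 CPM in blood and 73.9 and 109 in lymphatic cells (-0.43 ± 0.15, edgeR adjusted p = 0.0391). Cenpa did not, at 108 and 110 CPM against 100 and 139 (-0.14 ± 0.13, edgeR adjusted p = 0.463). Neither did Top2a, at 112 and 116 CPM against 160 and 124 (-0.30 ± 0.12, edgeR adjusted p = 0.0682), nor Cdk1, at 109 and 128 against 105 and 104 (0.19 ± 0.12, edgeR adjusted p = 0.264). Library 1's lymphatic cells were high in the early gene Top2a and library 2's in both late genes. Of the other lists, 8 of 50 other mitosis genes were lower in blood and 1 was higher, and 11 of 45 S-phase genes were lower and 1 was higher. Over all genes 21.6% were higher and 18.2% lower, so the counts of lower genes in these lists were not far from that share. Of the brakes, 8 of 20 were higher and 1 was lower. Cdkn1a, which encodes the inhibitor p21, was at 320 and 327 CPM in blood and 83.9 and 49.0 in lymphatic cells (2.34 ± 0.17, edgeR adjusted p = 1.51e-06). Of the G1 entry genes 4 were higher and 4 lower. Ccnd1 was at 501 and 605 CPM against 153 and 205 (1.63 ± 0.10, edgeR adjusted p = 5.69e-07). Its kinase partner Cdk6 was at 20.7 and 18.5 CPM against 56.2 and 62.2 (-1.62 ± 0.13, edgeR adjusted p = 3.3e-06), the opposite direction.

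**Figure D3:**
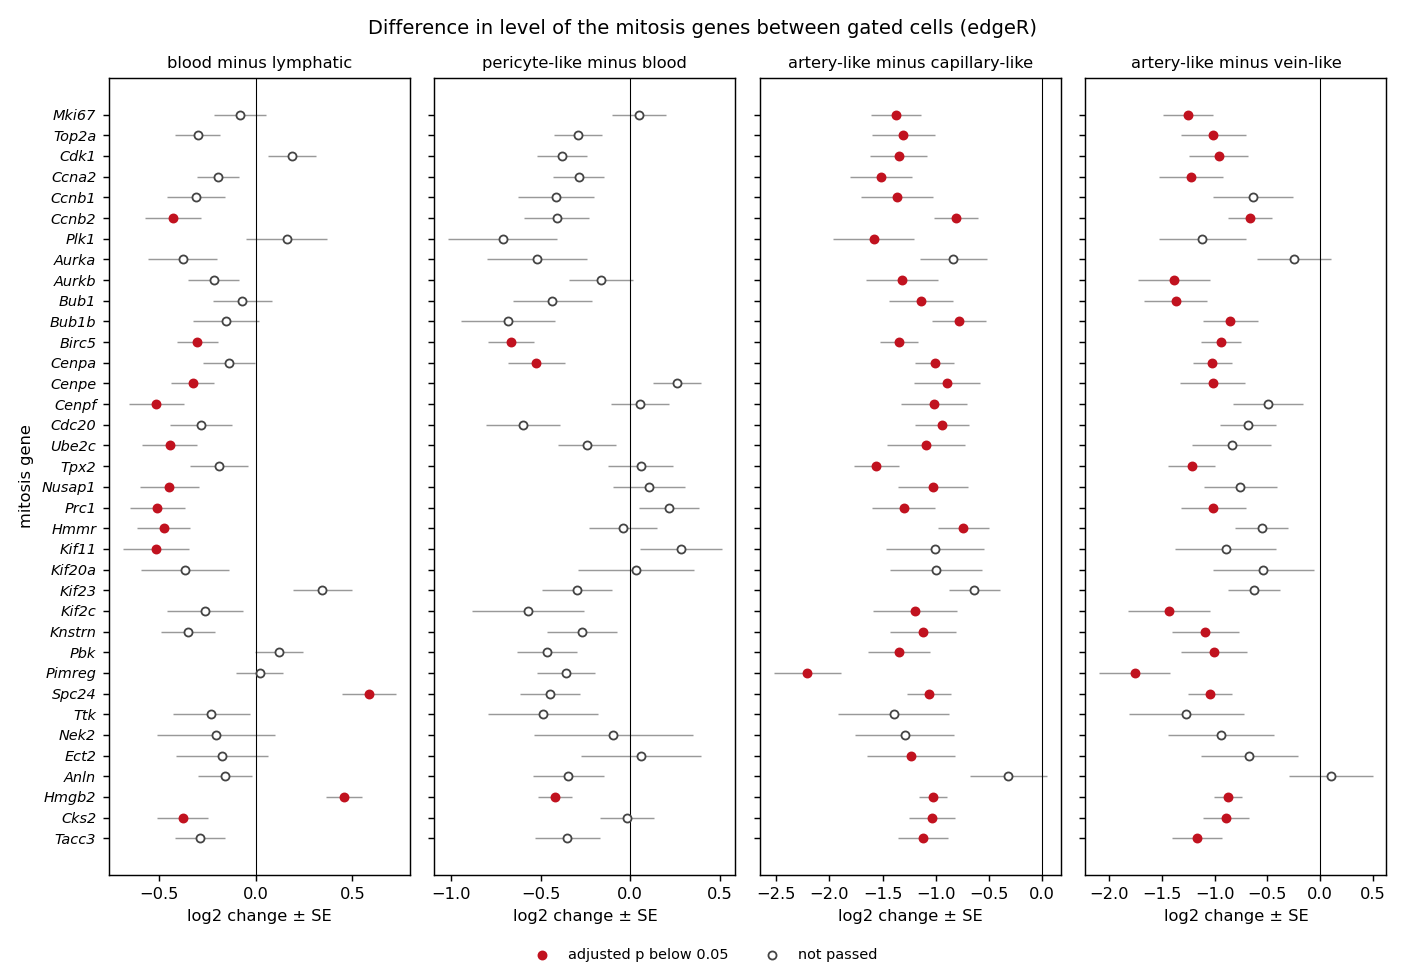
Log2 difference of each of the 36 mitosis genes (rows) in 4 comparisons of summed UMIs, with SE bars and filled red points where the edgeR adjusted p is below 0.05. Artery-like cells are lower in 29 genes against capillary-like and 21 against vein-like cells, while the blood against lymphatic comparison has 2 genes higher and 10 lower.

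In pericyte-like cells against blood endothelium, 3 members were lower, none was higher and 33 did not pass, where 19.6% of genes passed, 10.4% higher and 9.22% lower. The 3 were Birc5, at 78.6 and 65.6 CPM against 109 and 117 (-0.67 ± 0.13, edgeR adjusted p = 0.00405), Hmgb2, at 493 and 502 against 602 and 737 (-0.42 ± 0.09, edgeR adjusted p = 0.0104), and Cenpa, at 83.8 and 69.4 against 108 and 110 (-0.53 ± 0.16, edgeR adjusted p = 0.0433). In each of them both pericyte-like sums were below both blood sums. Top2a (-0.29 ± 0.14, edgeR adjusted p = 0.172), Cdk1 (-0.38 ± 0.14, edgeR adjusted p = 0.088) and Ccnb2 (-0.41 ± 0.18, edgeR adjusted p = 0.154) did not pass. The list as a whole rested on library 2. There 35 of 36 members were lower in pericyte-like cells, against 19 of 36 in library 1, and the median log2 change of -0.32 was 0.02 without library 2 and -0.52 without library 1. Over all genes the median was -0.05. The share of all genes that were lower in each library, or lower without overlap, was not computed for this comparison. Without the library block, with DESeq2 and with the stricter cell filter 1 member was lower in each case, and 11 were lower with no low-count filter. Pericyte-like cells with endothelial markers at 10 or more per 10000 UMIs held 20.5% and 21.9% dividing cells, and those below it 18.8% in both libraries (3 of 16 and 6 of 32 cells). Division was thus found at both levels of endothelial RNA. Ccnd2 was at 377 and 376 CPM in pericyte-like cells and 142 and 128 in blood endothelium (1.48 ± 0.11, edgeR adjusted p = 6.76e-06). Gas1, a growth arrest gene that is also a hedgehog co-receptor, was at 122 and 66.1 CPM against 7.89 and 7.21 (3.57 ± 0.19, edgeR adjusted p = 3.97e-07).

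The balance of late to early members was measured as the ratio of Ccnb2 and Cenpa UMIs to Top2a and Cdk1 UMIs. It was 0.777 and 0.751 in blood endothelium, close in both libraries. In lymphatic endothelium it was 0.658 in library 1 and 1.09 in library 2, on either side of the blood values. Vein-like cells were at 0.842 and 0.824, capillary-like cells at 0.620 and 0.749 and tip-like cells at 0.676 and 0.596. Tip-like cells were below vein-like cells in both libraries, an order that did not hold with other genes or gates. With Ccnb1, Cdc20, Plk1 and Aurka over Ccna2, Mki67, Nusap1 and Kif11 the ratio was 0.627 and 0.639 in tip-like and 0.524 and 0.722 in vein-like cells, and with types from clusters the means were 1.14 and 1.125. Pericyte-like cells were at 0.740 and 0.652. Artery-like cells, at 1.35 and 0.726, were above tip-like and pericyte-like cells in both libraries but above vein-like and capillary-like cells only in library 1. The ratio was given no test. Sorting dividing cells by the share of the late genes in the UMIs of these 4 genes (early below 1/3, late above 2/3, cells with 4 or more such UMIs) gave 64 early, 34 mixed and 48 late blood cells in library 1 and 105, 65 and 63 in library 2. Late cells were 32.9% and 27.0% of those sorted. In lymphatic endothelium they were 10 of 43 (23.3%, interval 11.8 to 38.6%) and 43 of 107 (40.2%, interval 30.8 to 50.1%). Of the 379 sorted blood cells, 69 lay within 5 percentage points of a cut, so the classes are ranges of a score.

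Late and early dividing blood cells were then compared over the 32 members that did not sort the cells into early and late. All of them but Hmgb2 and Cks2 had helped to call cells dividing, so the comparison is not independent of the choice of cells. In late cells 2 members were higher, 12 were lower and 18 did not pass, where 11.0% of 8838 genes passed, 4.16% higher and 6.87% lower. With no cell filter, and with doublets kept, 4 were higher. Cdc20 was at 216 and 355 CPM in late cells and 125 and 152 in early cells (1.06 ± 0.15, edgeR adjusted p = 2.98e-05). Knstrn, a kinetochore and spindle protein needed for chromosome separation, was at 146 and 154 CPM against 67.2 and 59.9 (1.26 ± 0.22, edgeR adjusted p = 0.000456). Both rose with no overlap between early and late cells. Of the lower genes, Pbk, a mitotic kinase, was at 6.65 and 14.9 CPM in late cells and 165 and 159 in early cells (-3.83 ± 0.26, edgeR adjusted p = 1.38e-09). Aurkb, the kinase of the chromosomal passenger complex, was at 3.33 and 17.4 CPM against 156 and 126 (-3.60 ± 0.30, edgeR adjusted p = 4.09e-08), the first value resting on 2 UMIs. Nusap1 was at 3.33 and 21.1 CPM against 146 and 121 (-3.28 ± 0.31, edgeR adjusted p = 1.87e-07), the first value again resting on 2 UMIs. For all 3 genes library 1's late cells were the lowest and rested on few UMIs.

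Prc1 was at 28.3 and 54.6 CPM in late and 244 and 239 in early cells (-2.48 ± 0.20, edgeR adjusted p = 1.7e-08). Kif11 was at 11.6 and 26.1 CPM against 108 and 88.0 (-2.28 ± 0.28, edgeR adjusted p = 8.59e-06), and Ube2c at 61.5 and 128 against 371 and 377 (-1.93 ± 0.18, edgeR adjusted p = 1.27e-07). So Ube2c and Cdc20, which both serve the anaphase-promoting complex, moved in opposite directions. The other 6 lower genes changed by -0.75 to -1.83. Among them was Plk1 (-1.01 ± 0.25, edgeR adjusted p = 0.00944), a late gene of the other ratio. Of its further late genes, Cdc20 was higher, while Ccnb1 (-0.03 ± 0.18, edgeR adjusted p = 0.938) and Aurka (-0.87 ± 0.31, edgeR adjusted p = 0.0786) did not pass. Late thus names cells rich in Ccnb2 and Cenpa, and whether they were at a later step of mitosis was not tested. All 45 tested S-phase genes were lower in late cells, with a median of -2.79, for example Tk1, a thymidine kinase, at 53.2 and 39.7 CPM against 339 and 265 (-2.70 ± 0.16, edgeR adjusted p = 1.73e-10). Of 50 other mitosis genes 28 were lower and 1 was higher. Late cells held fewer UMIs, with medians of 11404 and 10462 against 14196.5 and 13922 in early cells, and the part of depth in these differences was not tested.

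Mixed cells, with both early and late genes, held the highest levels of most members, a result not independent of the sorting. Dividing cells were called from members' own UMIs, and a mixed cell had to hold UMIs of both early and late genes. The share of all genes that peaked in mixed cells was not computed. The 32 members peaked in mixed cells in 31 cases in library 1 and 29 in library 2, and 28 did so in both. Ube2c reached 1198 and 1074 CPM in mixed cells, and Cenpf 872 and 555 against 231 and 252 in early cells and 165 and 307 in late cells. Birc5 was at 679.5 and 625 CPM in mixed cells, 403 and 363 in early and 397 and 443 in late cells. The 4 exceptions were Cenpe, Kif20a and Knstrn, highest in library 2's late cells, and Ttk, highest in library 1's early cells. Median UMIs in mixed cells were 16488 and 13297, so they were not the deepest class in library 2. The doublet caller had removed 3 and 11 cells before this step, and the part of remaining doublets in the mixed class was not tested.

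**Figure D4:**
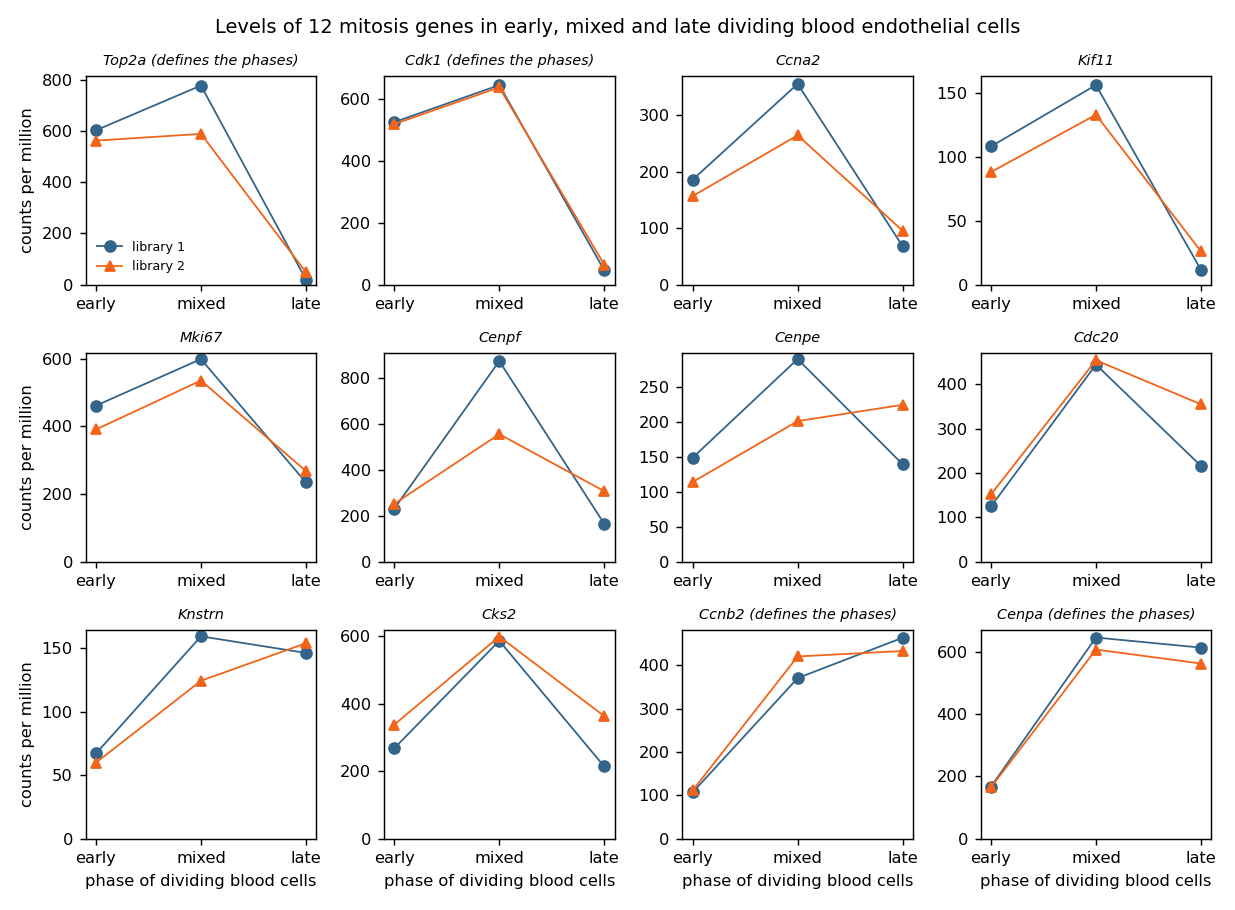
Levels of 12 mitosis genes (CPM, vertical axes from 0) in early, mixed and late dividing blood endothelial cells, with 1 line for each library. Kif11 and Ccna2 fall from mixed to late cells, Cdc20 and Cks2 peak in mixed cells, and Ccnb2 stays high in late cells, where the 4 genes that sort the cells differ by construction.

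Lymphatic cells were sorted and compared in the same way, a comparison added after the blood result was known. In late lymphatic cells 2 members were higher, 11 lower and 19 did not pass, where 4.37% of 9229 genes passed, 1.24% higher and 3.13% lower. Of the 13 genes called, 11 were also among the 14 called in blood (84.6% of the lymphatic and 78.6% of the blood calls), all in the same direction. Cdc20 changed by 1.53 ± 0.25 (edgeR adjusted p = 0.000616) and Knstrn by 1.54 ± 0.30 (edgeR adjusted p = 0.0033). Over the 32 members the log2 changes in blood and lymphatic cells had Pearson's r of 0.930 and Spearman's rho of 0.905, a description across genes that share libraries and the sorting rule. The difference between the blood and lymphatic changes was tested directly. No member passed, where 0.0217% of genes did (0.0108% in each direction), 3 had an unadjusted p below 0.05 in edgeR, and the smallest edgeR adjusted p was 0.896, for Hmgb2. DESeq2 was not run for this difference.

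**Figure D5:**
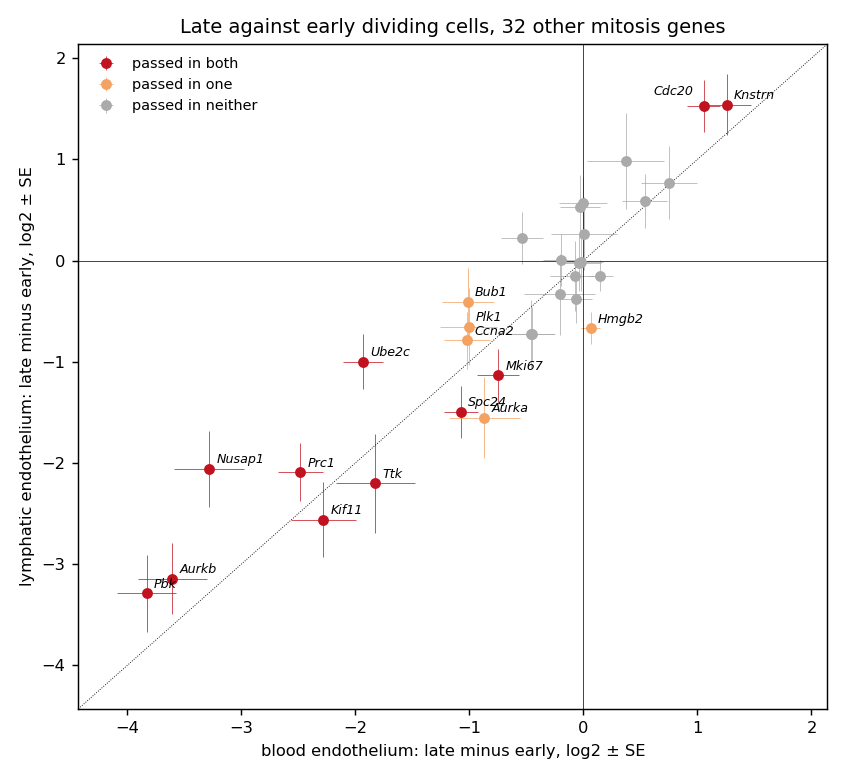
Log2 difference between late and early dividing cells in blood endothelium (horizontal axis) and lymphatic endothelium (vertical axis) for 32 mitosis genes, with SE bars and a dotted line of equality. Pbk and Aurkb lie lowest on both axes, Cdc20 and Knstrn lie highest on the vertical axis, and 26 of 32 genes have the same sign in both.

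Antibody tags, which count surface protein, were joined to the same barcodes. CXCR4, the receptor of the chemokine CXCL12, gave a mean of 14.0 and 15.1 tags per dividing blood cell and 26.3 and 26.7 per non-dividing cell. Without artery-like cells the means were 12.9 and 13.1 against 19.9 and 23.1, so CXCR4 tags were fewer in dividing cells in both libraries also outside that type. Isotype tags differed less between the classes, and CXCR4 tags per isotype tag were 8.89 and 6.29 in dividing and 17.7 and 10.7 in non-dividing blood cells. VEGFR2, the main receptor for the endothelial growth factor VEGF-A, gave 4.77 and 5.12 tags in dividing and 3.15 and 4.09 in non-dividing cells. Dividing blood cells were thus higher in VEGFR2 in both libraries, with 3.03 and 2.14 tags per isotype tag against 2.12 and 1.65. Dividing lymphatic cells were higher too, with 3.58 and 5.45 VEGFR2 tags a cell against 2.86 and 3.17. ICAM1, an adhesion molecule, gave 171 and 190 tags in dividing and 161 and 191 in non-dividing cells, with no common direction over all blood cells. Without artery-like cells ICAM1 was lower in dividing cells in both libraries, at 178 and 198 tags against 194 and 213. In lymphatic endothelium CXCR4 gave 1.40 and 1.20 tags in dividing and 1.48 and 1.17 in non-dividing cells, far below blood endothelium. Per isotype tag that was 1.85 and 0.570 in dividing and 1.13 and 0.652 in non-dividing lymphatic cells. With 2 libraries these means were given no test.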

How the data were processed

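The deposited UMI counts are raw; per the submitters' processing notes the reads were processed with Cell Ranger against mm10 (Seurat 3.0.2 is also named, with no role given), and per the file headers the matrices were written by software version 3.0.2. No values were normalized by the authors. Cells with at least 500 genes and at most 10% mitochondrial UMIs were kept, and doublets called with scanpy 1.11.5 were removed. The major kinds of cell were gated by summed marker UMIs per 10000 against fixed cuts (10, or 20 for fibroblast and erythroid markers). Lymphatic and blood endothelium were split at a lymphatic share of 50% of their summed markers. Vessel types within blood endothelium were gated by mean log values of the marker lists, with a margin of 0.25 SD between types. The members, lists and gate margins were chosen with earlier results of these data known, the margins with the members' levels in view. UMIs were summed per library and gate and tested with edgeR 4.0.16 (R 4.3.3; TMM, filterByExpr, quasi-likelihood, Benjamini-Hochberg over all genes tested), SE being the log2 change over the square root of F. All gates of a fit shared 1 estimate of the spread. The library was a block because each gate came from both libraries; gates of 1 library deviated together (r = 0.329 for blood and lymphatic, 0.342 and 0.161 for the pairs with pericyte-like cells, over 8620 genes).

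Genes were named by rule: Top2a, Cdk1, Ccnb2 and Cenpa everywhere, up to 6 members with the smallest p in each direction, and up to 4 genes of each other list. Plk1, Ccnb1 and Aurka were also named in late against early blood cells, as late genes of the other ratio. The levels given for mixed cells are of genes picked after their values were seen. Intervals are exact (Clopper-Pearson, 95%), and UMIs remove duplicate reads. In counts simulated with known changes, the test recovered 100% of 2-fold changes for blood against lymphatic cells (12121 genes), 95% for tip-like against capillary-like cells (10921 genes) and 78% for late against early cells (8838 genes). Changed genes were drawn only from those at higher levels, with 1 common spread, so these rates do not cover genes at low levels. Alternatives covered scaling, filters, DESeq2 1.42.0, gates, clusters and single libraries. Other samples named in the protocols were not analysed here.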

Additional observations from a re-analysis of the deposited data

How the results depend on the processing

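Of 333 recomputed values, 251 stayed within 1.5 times the reported count or 1 SD of the reported median, share or ratio. The SD came from the same 2 libraries, so shares and ratios with 1 library left out could not fall outside it. For medians it was the SD of the leave-one-out medians, so a wide gap between libraries also counted as unchanged. All 23 values without library 1 and all 23 without library 2 counted as unchanged. The tally is thus no measure of agreement between the libraries. The cause of the other changes was not tested unless named. For blood against lymphatic endothelium, 1 member was higher and 0 lower without the replicate block, and with DESeq2 1 higher and 0 lower; the stricter cell filter gave 1 higher and 18 lower, and splitting cells by sex gave 2 lower. Its median was -0.27 with RLE size factors, -0.23 with no low-count filter, -0.27 with DESeq2, -0.53 with the stricter cell filter, -0.29 with no cell filter, -0.22 with doublets kept, -0.31 with types from clusters and -0.18 with cells split by sex. Pericyte-like cells had 11 members lower with no low-count filter and 1 lower each without the block, with DESeq2 and with the stricter cell filter. The block changed no other count by over 1.5 times.

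With types from clusters most dividing blood cells lay in capillary-like clusters: 36 members were then lower against capillary-like cells in tip-like (median -3.16), vein-like (-2.82) and artery-like cells (-2.53). Artery-like against vein-like cells gave 1 higher and 0 lower (median 0.21, Top2a 0.31, Spc24 0.34), Cdk1 fell by 2.77 in tip-like cells and Cenpa fell by 1.81 in vein-like cells. Dividing shares became 38.7% in capillary-like, 8.64% in tip-like and 8.71% in vein-like cells, and late to early ratios 1.14 in tip-like and 1.125 in vein-like cells. Artery-like against capillary-like cells had 19 members lower with DESeq2, 6 with the stricter cell filter and 18 with stricter gate margins. Against vein-like cells 11 were lower with the stricter cell filter and 6 with stricter margins. Vein-like against capillary-like cells had 4 lower with no low-count filter, 4 with stricter margins (median -0.58) and 2 with cells split by sex. The median of tip-like against capillary-like cells was 0.25 with the stricter cell filter. Late against early cells had 4 members higher with no cell filter and 4 with doublets kept.

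Dividing shares, as means over libraries, followed the definition. Thinned to 6000 UMIs they were 26.8% in blood, 21.9% in lymphatic, 24.99% in pericyte-like, 12.8% in artery-like, 21.9% in vein-like, 30.7% in capillary-like, 25.3% in tip-like and 39.6% in unplaced cells. Not thinned they were, in that order, 26.0%, 26.4%, 31.2%, 10.2%, 25.5%, 29.7%, 25.9% and 38.8%. With at least 2 member UMIs they were 24.4%, 23.0%, 26.4%, 12.1%, 21.4%, 27.5%, 23.7% and 36.1%. Thinned to 2500 UMIs, blood was at 16.0%, pericyte-like cells at 15.7%, artery-like at 5.31%, tip-like at 15.8% and unplaced at 27.0%. With at least 5 member UMIs these were 15.6%, 13.1%, 6.25%, 14.7% and 26.9%. With Ccnb1, Cdc20, Plk1 and Aurka over Ccna2, Mki67, Nusap1 and Kif11 the ratio was 0.689 in blood, 0.463 in pericyte-like, 0.623 in vein-like and 0.707 in unplaced cells.

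Leaving out 1 library gave medians of -1.95 to -0.54 for artery-like against capillary-like cells, -1.65 to -0.53 against vein-like, -0.52 to 0.02 for pericyte-like against blood, -0.21 to 0.17 for tip-like and -0.44 to 0.00 for vein-like against capillary-like, -0.25 to -0.24 for blood against lymphatic and -0.54 to -0.23 for late against early cells. Depth limits the smallest sums, those of mixed and late cells.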
